A study of Caenorhabditis elegans with 18 samples.

Results

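In early Caenorhabditis elegans embryos, 1518 of the 200538 windows of 500 bp in the table, 0.757%, had high coverage in input chromatin of the wild type. They were chosen by their scaled reads in N2 inputs b and c, whose mean had to be at least 2 times the median of that mean over all windows, or 331 scaled reads against a median of 165. Windows on chromosome V that start from 2300001 to 2600000 were left out, and 96 windows there also met the threshold. The study compared LEM-2 chromatin immunoprecipitation (ChIP-seq) with input chromatin in embryos before the bean stage, grown at 20 degrees. The 3 strains were N2 (Bristol), the wild type, met-2(n4256) III and set-25(n5021) III, with 3 IP and 3 input libraries each from independent biological replicates. Libraries are named by strain and by the letter a, b or c of their column. Whole embryos were used, so every value is an average over the cells of many embryos.

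The inner nuclear membrane of the worm carries LEM-2, and DNA recovered with this protein lies near the nuclear periphery. Of the enzymes deleted here, MET-2 (related to mammalian SETDB1) gives histone H3 lysine 9 its first methyl groups, and SET-25 brings it to the trimethylated state. Both marks cover repeats and transposons in worm embryos, and help to hold chromatin at the periphery. Coverage of input above that of the rest of the genome arises, among other ways, where an assembly holds fewer copies of a repeat than the animal does, so that reads of many copies fall on few windows. Whether these windows hold collapsed repeats was not tested, because no genome sequence or annotation of the table's build was used here.

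Depth and strain labels were checked before the results. The libraries held from 8.73 to 64.45 M reads. The chosen windows had at least 341 reads in the mean of the 9 inputs, so none was thin in input. Met-2 IP b was the smallest library, at 8.73 M reads and a median of 40 reads per window over all windows. The lowest count of a chosen window in the IP libraries was not examined. On chromosome III from 8376501 to 8377500, met-2 IP libraries a, b and c had 5, 0 and 0 reads and met-2 inputs 3, 0 and 1, while N2 inputs a, b and c had 435, 358 and 425. In that interval set-25 input a had 684 reads, but set-25 inputs b and c had 0 and 0. The set-25 label thus covers a column a that carries this interval and 2 columns that, like met-2, lack it. All 6 libraries labelled set-25 had 0 to 4 reads from 13287501 to 13289000 on the same chromosome. Means over the 3 set-25 columns, and ranges and correlations made from them, therefore pool unlike libraries.

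High-coverage windows lay on all 6 chromosomes. Chromosome V held 330, I held 268, X 267, III 248, IV 246 and II 159. As a share of its windows, III was highest at 0.900% and II lowest at 0.520%. With each chromosome divided into 3 parts of equal length, the left and right parts of the autosomes together held 864 windows or 0.785%, and the middle parts held 387 or 0.703%, so the windows were not gathered on the arms as a whole. Single parts varied more. The right part of I had 1.51% and the left part of X 1.21%, against 0.179% in the middle part of I and 0.353% in the right part of II.

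The windows formed 443 runs of adjacent windows. Of these, 166 runs were 1 window and 100 were 2 windows long, while 137 runs of 4 or more windows held 68.0% of all high-coverage windows. The longest, with 31 windows, spanned 10204001 to 10219500 on I. The run of 25 windows from 15060001 to 15072421 at the right end of I had the highest mean coverage, 57.9 times the median window, and a peak of 125 times. By class of coverage, 600 windows lay at 2 to under 3 times the median window, 279 at 3 to under 5, 283 at 5 to under 10, 186 at 10 to under 20 and 170 at 20 times or more. At the threshold itself, the 5 windows just inside lay between 2.0013 and 2.00501 times the median and the 5 just outside between 1.99714 and 1.99997 times.

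The coverage carried over to the 7 inputs that did not choose the windows. In each of these, coverage was set against the median window of that library. At least 2 times the median was reached by 1253 windows in N2 input a, by 1334, 1376 and 1436 in met-2 inputs a, b and c, and by 1317, 1394 and 1423 in set-25 inputs a, b and c. In all 7 libraries together 1154 windows, 76.0%, stayed at 2 times or more, and 7 did so in none. Windows at the low end carried over least. Of those with 2 to under 3 times the median, 41.5% stayed above 2 in all 7, against 95.3% at 3 to under 5 and 100% of the windows at 5 times or more. When the mean of the 6 met-2 and set-25 inputs chose the windows instead, 1501 were found, and 1420 of them were the same windows, 93.5% of the first list and 94.6% of the second. Between met-2 and set-25 inputs, 0 of 1518 windows differed by limma on all windows with a Benjamini-Hochberg adjusted p under 0.05, in either direction. The background was 0.00349% of all windows higher and 0% lower. At an unadjusted p under 0.05 limma gave 15, and limma voom on recovered reads also called 0, against 0.00349% of all windows higher and 0.000499% lower.

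Between columns a and c, input coverage differed in the same direction in all 3 strains in most runs of 4 or more windows. On I from 10204001 to 10219500, inputs a, b and c were at 9.50, 7.71 and 6.96 times the median window in N2, 10.5, 8.13 and 6.36 in met-2, and 8.97, 8.30 and 6.75 in set-25. On II from 8287501 to 8293000 the order was turned, with 29.5, 36.4 and 44.9 in N2, 36.7, 37.5 and 46.3 in met-2, and 34.0, 37.0 and 42.5 in set-25. Column a was thus highest at the first run in every strain and lowest at the second. Over the 137 runs of 4 or more windows, input c lay above input a in all 3 strains in 81 runs and below it in all 3 in 47, and the direction differed between strains in 9. Of single windows, 27.7% had input c highest and input a lowest in all 3 strains, and 14.2% the reverse, against 6.04% and 6.27% of the other windows. N2 input c took part in the choice of the windows and N2 input a did not, and high-coverage windows hold more reads than others. What part either has in these counts was not tested. Labels do not say what the letters stand for, and what moves with them was not tested.

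**Figure D1:**
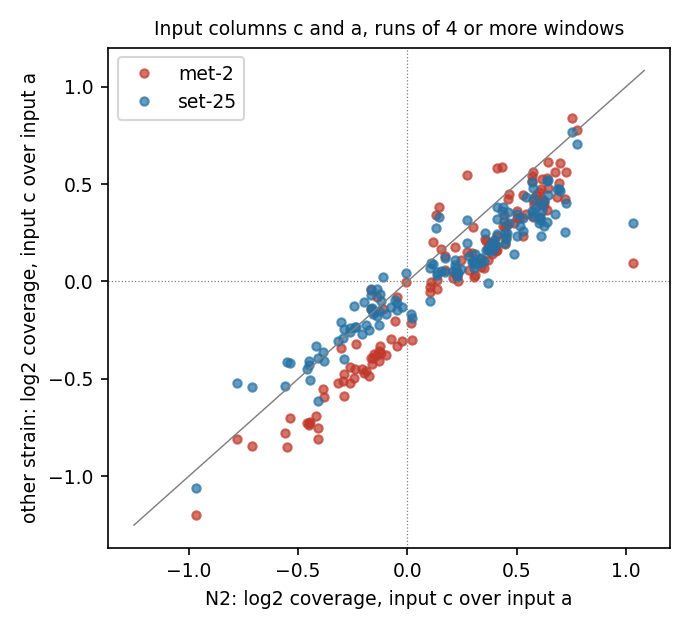
Each of the 137 runs of 4 or more high-coverage windows gives a point for met-2 (red) and one for set-25 (blue). The log2 ratio of coverage in input c to input a of N2 is on the x axis and the same ratio in met-2 or set-25 on the y axis, with the line of equality. Most runs lie to the lower left or upper right, where all strains share the direction (47 and 81 runs), and ratios span -1.20 to 1.03.

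The first and last windows of the chromosomes stood apart from the other windows in coverage and in LEM-2. They were singled out after their values were seen. Of the 12 end windows 11 were high-coverage windows, all but the last of V. Last windows are shorter than the others, from 68 bp on V to 421 bp on I, and reads were not scaled to length, so their coverage is understated and the last window of V was at 1.65 times the median with 68 bp. Over these 11 windows the geometric mean coverage was 4.87, 4.66 and 6.01 times the median window in N2 inputs a, b and c, 2.54, 2.71 and 4.15 in met-2 inputs, and 3.41, 3.33 and 3.89 in set-25 inputs. Means were 5.18 ± 0.73 in N2, 3.14 ± 0.88 in met-2 and 3.54 ± 0.31 in set-25 (SD, n = 3). Each letter of N2 was higher than the same letter of both mutants in this mean. The first window of I held 10.6, 10.5 and 13.0 times the median in N2 inputs, 4.48, 5.27 and 8.05 in met-2 and 7.25, 6.30 and 7.66 in set-25, and the N2 values did not overlap those of either mutant. N2 inputs b and c chose the windows, so of the N2 values in these comparisons only those of input a are independent of the choice.

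N2 input a, which did not choose the windows, exceeded met-2 input a in 11 of 11 end windows, and in 13.2% of all high-coverage windows. It exceeded set-25 input a in 11 of 11, against 29.9% of all. In 9 of the 11, N2 input a lay above all 3 inputs of met-2, and in 9 above all 3 of set-25. The share of other windows where this holds was not counted, so nothing is read from it. Worm chromosomes end in telomeric repeats, and whether the reads of these windows come from such repeats was not tested. No test between N2 and mutant inputs was made, since N2 inputs b and c chose the windows.

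LEM-2 enrichment of an IP library is its log2 value minus the mean log2 value of the 3 inputs of its strain. Since 1 input mean serves all 3 IP values of a strain, the spread between inputs is not part of their SD. Over the 11 end windows it was -0.76, -1.47 and -1.74 in N2 columns a, b and c, -0.26, -0.47 and -1.55 in met-2, and -1.02, -1.05 and -1.29 in set-25. All 9 libraries were below input there. The ranges of the strains overlapped, but column a was highest and column c lowest in each strain, and within each letter met-2 lay above N2. In N2, the inputs subtracted include b and c, which chose the windows. Geometric mean input coverage of the end windows was 5.18 times the median window in N2 and 3.14 in met-2. What part this has in the difference between met-2 and N2 was not tested. Mean enrichment was -1.32 ± 0.51, -0.76 ± 0.69 and -1.12 ± 0.15 (SD, n = 3). The 500 kb at each end differed from this, with 0.38 ± 0.05 in N2, 0.23 ± 0.02 in met-2 and 0.31 ± 0.04 in set-25 over windows that were not of high coverage (SD, n = 3). By limma, IP was lower than input in 7 of the 11 windows in met-2, in 10 in set-25 and, against N2 input a alone, in 9 in N2, and higher in 0 in each strain. Of all windows, 5.55%, 24.9% and 29.8% were lower in these 3 comparisons. The end windows were singled out after their values were seen, so these calls are a description. Within 500 kb of a chromosome end lay 160 high-coverage windows, the 11 end windows among them. The mean of the 160 was 0.32 ± 0.09 in N2, 0.01 ± 0.09 in met-2 and 0.13 ± 0.14 in set-25 (SD, n = 3). This was below the other windows there in all 9 libraries, by -0.06, -0.23 and -0.19 in the strain means. No mean without the 11 end windows was computed, so nothing is read from this about the other high-coverage windows near the ends.

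Over all high-coverage windows together, mean LEM-2 enrichment was above that of the rest of the genome, most of all in N2. The mean in N2 was 0.18 ± 0.04, from 0.14 in a through 0.18 in b to 0.23 in c, against -0.21 ± 0.04 over all other windows (SD, n = 3). High-coverage windows therefore exceeded the others by 0.39 ± 0.04 on the log2 scale, a ratio of 1.31 (SD, n = 3). In met-2 the mean was 0.04 ± 0.04 and the excess 0.09 ± 0.07, made of 0.04, 0.06 and 0.17 for its 3 columns (SD, n = 3). The libraries labelled set-25 had a mean of 0.09 ± 0.11 and an excess of 0.20 ± 0.16 (SD, n = 3). Their column a, at an excess of 0.38, lay in the N2 range of 0.35 to 0.42, and the other two, at 0.09 and 0.13, in the met-2 range. The median of all windows was -0.25 in N2, -0.06 in met-2 and -0.11 in set-25, so strains are compared through the excess, which centring on the median does not change. These means carry no test, because the windows were chosen with results of these data known. With a threshold of 1.5 times the median, which takes in 3127 windows, the excess was 0.10 in N2, 0.0012 in met-2 and 0.024 in set-25.

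The share of all reads that fell in high-coverage windows was also higher in N2 IP than in met-2 IP. Inputs held 6.55% ± 0.40 in N2, 6.87% ± 0.27 in met-2 and 6.76% ± 0.19 in set-25 (SD, n = 3). The share in IP libraries was 8.69% ± 0.14 for N2 but 7.08% ± 0.30 for met-2 (SD, n = 3). In the libraries labelled set-25 the IP share was 9.43% in column a, 7.10% in column b and 7.10% in column c.

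**Figure D2:**
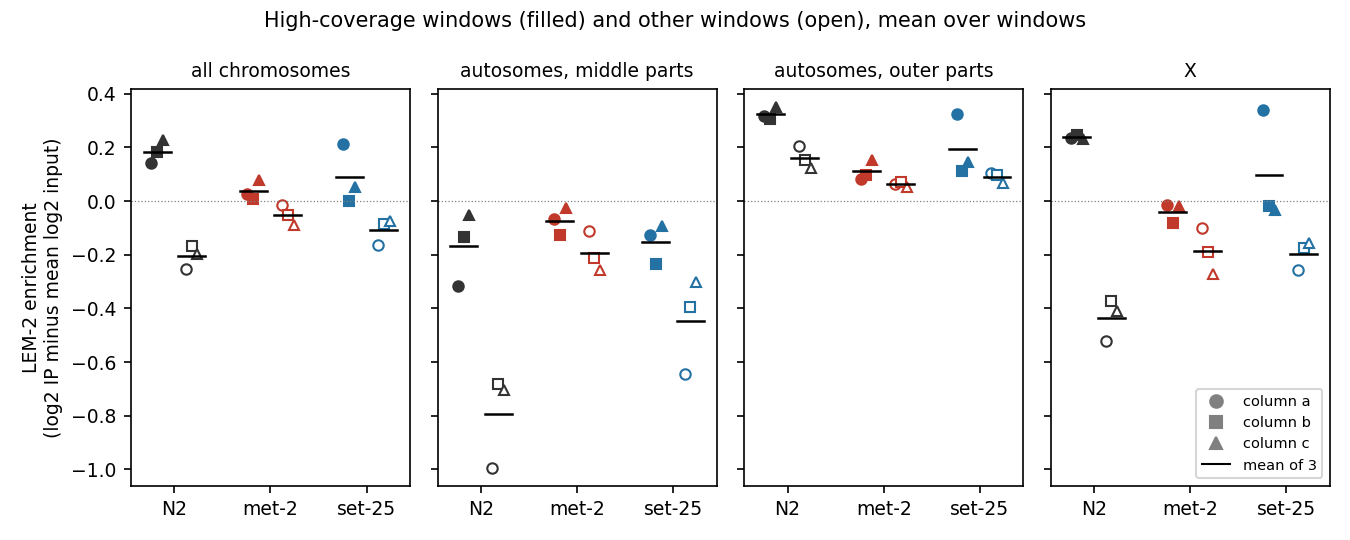
LEM-2 enrichment (log2 IP minus mean log2 input of the strain, y axis) in each of the 9 IP libraries, as the mean over high-coverage windows (filled) and over all other windows (open), for the whole genome and 3 compartments. Marks give the column and bars the mean of 3 libraries. In N2 the filled marks lie above the open ones in each compartment, by 0.63 in autosomal middle parts and 0.67 on X, and by 0.12 and 0.15 in met-2.

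The excess was larger in autosomal middle parts and on X, whose other windows were depleted on average, than on autosomal outer parts. In autosomal middle parts of N2, high-coverage windows were at -0.17 ± 0.14 and the other windows at -0.79 ± 0.17, a difference of 0.63 ± 0.07 (SD, n = 3). On X the difference was 0.67 ± 0.08, between 0.24 ± 0.01 and -0.43 ± 0.08 (SD, n = 3). On the outer parts of the autosomes it was 0.16 ± 0.06 (SD, n = 3). In met-2 the 3 differences were 0.12 ± 0.10, 0.15 ± 0.09 and 0.05 ± 0.05 (SD, n = 3). On X, high-coverage windows of set-25 column a were at 0.34, above all N2 libraries (0.23 to 0.25), and columns b and c were at -0.02 and -0.03, within the met-2 range of -0.08 to -0.01. Among chromosomes, the N2 mean was highest on III, at 0.43 ± 0.08, and lowest on IV, at -0.02 ± 0.04 (SD, n = 3). In met-2, III was again highest at 0.24 ± 0.11 and IV lowest at -0.06 ± 0.05 (SD, n = 3).

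In N2, runs lay above their flanks about as often as below them. Each run was compared with the windows that were not of high coverage among the 10 on either side, a comparison added after the first values were seen. Over all 443 runs, each with equal weight, N2 runs were at 0.12 ± 0.02 and their flanks at 0.13 ± 0.03, a difference of -0.01 ± 0.05 (SD, n = 3). In met-2 the difference was -0.04 ± 0.02 and in set-25 -0.03 ± 0.03 (SD, n = 3). Single runs differed far more from their flanks than these means, with an SD over runs of 0.49 in N2, 0.30 in met-2 and 0.39 in set-25. In N2, 219 of 443 runs lay above their flanks, against 184 in met-2 and 224 in set-25. Among the 137 runs of 4 or more windows, 81 lay above them in N2, 59 in met-2 and 66 in set-25, with mean differences of 0.07, 0.0018 and 0.01. On X the N2 flanks were at 0.23 ± 0.04, well above the -0.43 of the other windows of X. Runs minus flanks was -0.02 ± 0.01 there (SD, n = 3). The flanks of runs in autosomal middle parts of N2 were at -0.32 ± 0.09, well above the -0.79 of all other middle windows. The runs themselves were 0.09 ± 0.05 higher than these flanks (SD, n = 3). Of the strain means in the 3 compartments, none for runs differed from that for flanks by more than this.

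**Figure D3:**
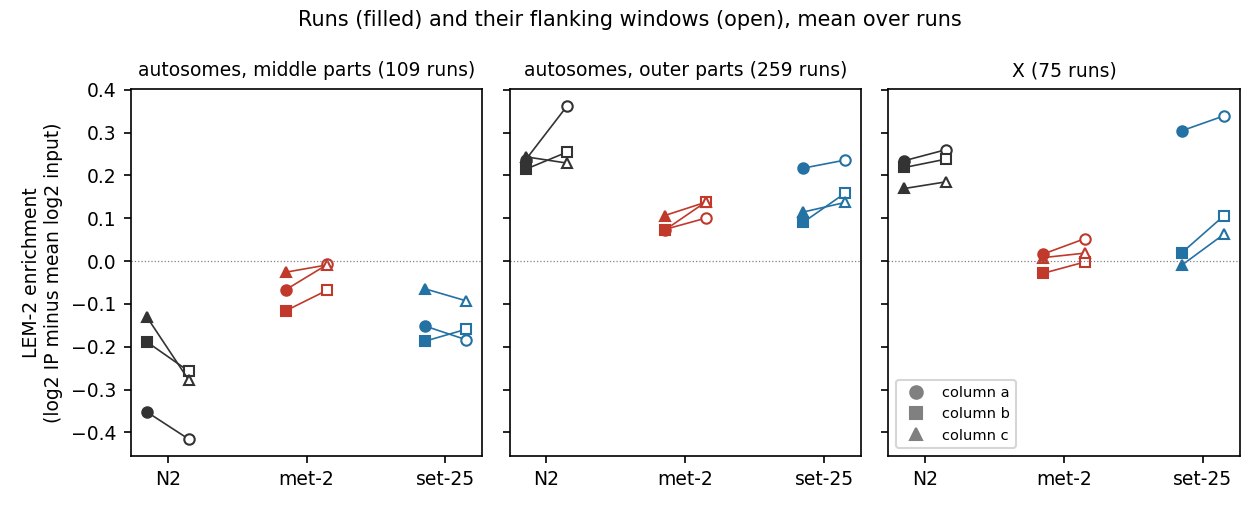
LEM-2 enrichment (y axis) averaged over runs of high-coverage windows (filled) and over their flanking windows (open), joined by a line for each IP library, in autosomal middle parts (109 runs), outer parts (259 runs) and X (75 runs). Strain mean differences of run minus flank go from -0.06 to 0.09, and those of libraries from -0.13 in N2 column a (outer parts) to 0.15 in N2 column c (middle parts).

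In LEM-2 level, the windows of highest coverage separated N2 and met-2 most. At 20 times the median window or more, 170 windows in 50 runs, LEM-2 enrichment was 0.34, 0.36 and 0.45 in N2 columns a, b and c, and -0.01, -0.05 and -0.06 in met-2. No N2 library overlapped a met-2 library. Columns a, b and c labelled set-25 were at 0.49, -0.07 and 0.03, so column a lay above N2 and b below met-2. At 2 to under 3 times the median, the means were 0.15 ± 0.03 for N2 but 0.09 ± 0.05 for met-2 (SD, n = 3). There set-25 columns a, b and c were at 0.18, 0.07 and 0.12, and the levels of the strains overlapped. These are levels and not the excess over all other windows, whose mean was -0.21 in N2 and -0.05 in met-2. Whether the excess overlapped in this class was not computed. Across the 1518 windows, log2 coverage and enrichment had a Pearson r of 0.09 in N2, -0.13 in met-2 and -0.03 in set-25. Coverage and enrichment share the inputs in N2, and windows of 1 run are not independent.

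**Figure D4:**
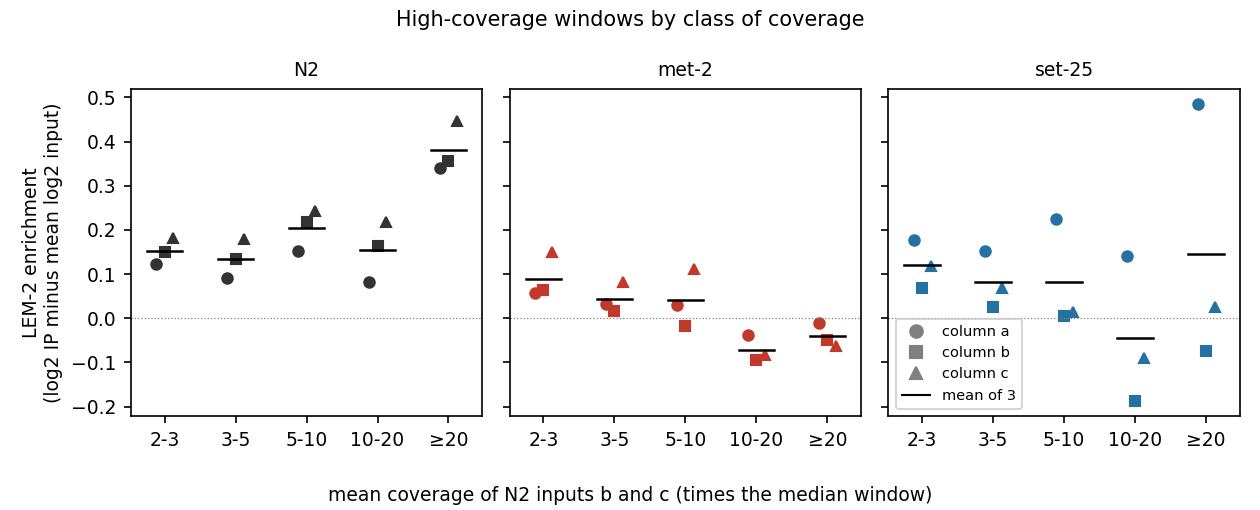
LEM-2 enrichment (y axis) of high-coverage windows in 5 classes of mean coverage of N2 inputs b and c (x axis, times the median window), for each IP library, with bars at the mean of 3. At 20 times or more the N2 libraries lie between 0.34 and 0.45, the met-2 libraries between -0.06 and -0.01, and column a labelled set-25 at 0.49, apart from its columns b and c.

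Windows were tested one by one with limma over all 200538 windows and adjusted p under 0.05 by Benjamini-Hochberg. In met-2, IP was higher than input in 221 of the 1518 windows, 14.6%, against a background of 7.54% of all windows, and lower in 133, 8.76%, against 5.55%. The met-2 counts rest on few libraries, since without met-2 IP c only 57 were higher and 32 lower. The libraries labelled set-25 had 509 higher, 33.5% against 17.7%, and 335 lower, 22.1% against 24.9%. With column a as the only set-25 column, 287 were higher and 132 lower. In N2, where only input a was independent of the choice, 421 were higher, 27.7% against 17.4%, and 172 lower, 11.3% against 29.8%. High-coverage windows hold more reads than others, and what part of the larger share of calls this makes was not tested. On median-centred values the split of higher and lower windows moved to 245 and 92 in met-2, 610 and 221 in set-25 and 673 and 54 in N2. Of all windows, 8.9% and 4.52%, 22.8% and 18.5%, and 25.7% and 15.3% were then higher and lower. With all 3 N2 inputs, of which 2 chose the windows, 653 were higher and 333 lower in N2 beside 24.9% and 42.1% of all windows, from which nothing is read.

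Calls between strains in IP minus input depended on the scaling and the tool. By limma on the values as deposited 0 of 1518 windows passed between met-2 and N2 with N2 input a alone, with a background of 0%, and 379 had an unadjusted p under 0.05. On median-centred values 126 were lower and 1 higher in met-2, against 3.42% and 0.184% of all windows, and by limma voom on recovered reads 84 were lower and 7 higher, against 2.7% and 5.6%. With all 3 N2 inputs 121 were lower and 63 higher beside 5.71% and 9.89% of all windows, again a description. Between set-25 and N2, 0 passed by limma and by voom, with 137 unadjusted, and between met-2 and set-25 0 passed by both, with 122 unadjusted. The background was 0% in both comparisons, except for 0.000499% of windows lower in set-25 than in N2 by voom and 0.0015% with all 3 N2 inputs, by which 0 high-coverage windows passed.

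The IP libraries alone, none of which chose the windows, differed more often. In met-2 IP against N2 IP, 331 of the 1518 windows were lower, 21.8% against 15% of all windows, and 229 were higher, 15.1% against 28.3%. In set-25 IP against N2 IP, 80 were lower, 5.27% against 4.62%, and 21 higher, 1.38% against 6.89%. In met-2 IP against set-25 IP, 18 were higher and 9 lower, against 0.857% and 0.318% of all windows. Without division by input, these counts also hold any difference in input coverage. The counts that follow use IP minus the mean of 3 inputs, which in N2 includes the 2 that chose the windows, so those against N2 are a description from which nothing is read. All 3 met-2 values lay below all 3 N2 values in 522 windows, 34.4% against 17.2% of all windows, and above them in 161, 10.6% against 27.6%. For set-25 against N2 the counts were 141 below, 9.29% against 11.1%, and 65 above, 4.28% against 15.7%. For met-2 against set-25 they were 148 below, 9.75% against 7.84%, and 98 above, 6.46% against 11.2%.

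Among the 137 runs of 4 or more windows, the LEM-2 level ranged from -1.29 to 1.65 in N2, from -0.68 to 1.05 in met-2 and from -1.06 to 1.36 in set-25. The SD over runs was 0.63, 0.37 and 0.54. In N2, 50 runs were above 0.5 and 18 below -0.5, while in met-2 19 were above 0.5 and 6 below -0.5. Levels of runs went together between strains, with a Pearson r over runs of 0.78 between N2 and met-2, 0.93 between N2 and set-25 and 0.92 between met-2 and set-25. Over single windows, r was 0.79, 0.92 and 0.91 in high-coverage windows and 0.76, 0.88 and 0.81 in the other windows of the genome. A high r was thus not particular to high-coverage windows, though it was higher there, most of all between met-2 and set-25.

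**Figure D5:**
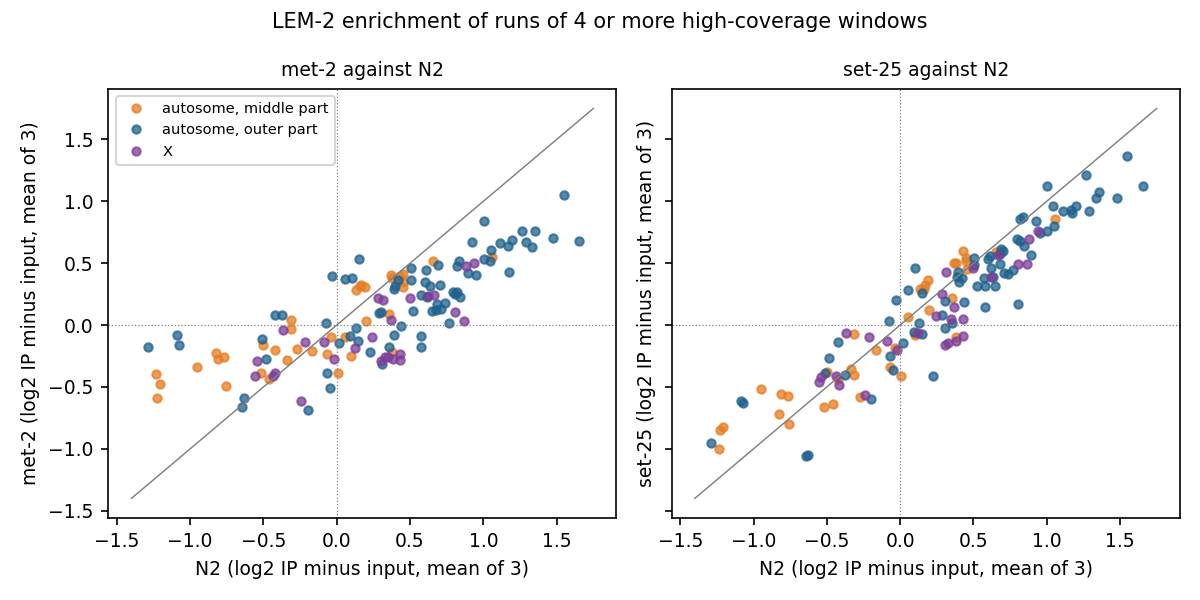
Each point is one of the 137 runs of 4 or more high-coverage windows, with its LEM-2 enrichment in N2 on the x axis and in met-2 (left) or set-25 (right) on the y axis, each the mean of 3 libraries, with colour for the compartment and the line of equality. Met-2 values span -0.68 to 1.05 where N2 values span -1.29 to 1.65, so the cloud is flatter than the line, and set-25 lies closer to it.

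The runs highest in met-2 were on the outer parts of III, I and V. The run on III from 1017001 to 1021000, with 18.1 times the coverage of the median window, had LEM-2 values of 0.84, 0.92 and 1.40 in met-2, 1.80, 1.55 and 1.29 in N2 and 1.60, 1.49 and 1.0 in set-25. Met-2 and N2 overlapped in level there, and all 8 windows were higher in IP than in input in each strain by limma. Of all windows, 7.54% were higher in met-2, 17.7% in set-25 and 17.4% in N2. The run was picked by its met-2 values, so its met-2 calls are a description, and windows of 1 run are not independent. On V from 1712501 to 1714500, enrichment was 1.0 ± 0.20 in N2, 0.84 ± 0.31 in met-2 and 1.12 ± 0.20 in set-25 (SD, n = 3). The strains did not separate in level at that run. The other 3 were on III from 10224501 to 10228000 and from 450001 to 453500 and on I from 669501 to 672000, at 0.76 ± 0.29, 0.70 ± 0.31 and 0.76 ± 0.34 in met-2 and 1.35 ± 0.29, 1.48 ± 0.23 and 1.27 ± 0.03 in N2 (SD, n = 3).

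Among runs of 4 or more windows, met-2 values were lowest at the right end of I and on the right arm of V, while the first window of I was lower, at -0.96. In this species the genes of the large ribosomal RNAs form a tandem array at the right end of chromosome I, and those of the small 5S ribosomal RNA an array on the right arm of V. Whether the runs named next are these arrays was not tested. On V from 17120001 to 17127000 enrichment was -0.65, -0.63 and -0.66 in N2, -0.35, -0.57 and -1.07 in met-2 and -1.02, -1.19 and -0.97 in set-25. All 14 windows of this run were lower in IP than in input in met-2 and in set-25 by limma, and 11 in N2. Of all windows, 5.55% were lower in met-2, 24.9% in set-25 and 29.8% in N2. This run too was picked by its met-2 values, so its met-2 calls are a description. Set-25 libraries lay below all N2 libraries. The next run, from 17128001 to 17132500, was alike, at -0.63 ± 0.05 in N2, -0.59 ± 0.38 in met-2 and -1.05 ± 0.11 in set-25 (SD, n = 3).

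The run at the right end of I, from 15060001 to 15072421, varied between libraries. Its coverage in inputs a, b and c was 46.3, 54.6 and 61.5 times the median window in N2, 46.2, 48.1 and 69.2 in met-2 and 56.3, 61.7 and 73.5 in set-25. Within each letter set-25 was highest. LEM-2 enrichment was 0.26, -0.37 and -0.48 in N2, -0.39, -0.35 and -1.31 in met-2, and -0.04, -0.92 and -0.83 in set-25, so column a of N2 and of set-25 lay apart from their b and c. By limma 0 of its 25 windows were called in N2 and in met-2, and 4 were lower in IP in set-25. The remaining runs among the 5 lowest in met-2 were on IV from 7597001 to 7599500, at -0.59 ± 0.35, and on X from 7077001 to 7079500, at -0.61 ± 0.15 (SD, n = 3).

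The runs with the largest differences between met-2 and N2 went toward 0 from both sides. Those lower in met-2 were enriched in N2. On III from 2077501 to 2083000, at 6.33 times the median coverage, enrichment was 1.82, 1.56 and 1.59 in N2, the highest of all runs of 4 or more windows, and 0.44, 0.58 and 1.01 in met-2. Columns a, b and c labelled set-25 were at 1.5, 1.01 and 0.85, below all N2 libraries. On X from 1636001 to 1638500 N2 had 0.87 ± 0.14 and met-2 0.03 ± 0.11, and on V from 17308501 to 17312000 they had 0.58 ± 0.15 and -0.17 ± 0.03 (SD, n = 3), without overlap in either. Runs higher in met-2 were depleted in N2. On III from 4434001 to 4436500 values were -1.60, -1.11 and -1.16 in N2, -0.24, -0.18 and -0.11 in met-2 and -1.28, -0.96 and -0.61 in set-25. The others, on I from 4349001 to 4351500 and from 4354501 to 4357000, on III from 8861501 to 8864000 and on IV from 7591001 to 7596000, were at -1.09 ± 0.11, -1.07 ± 0.17, -1.24 ± 0.54 and -1.21 ± 0.22 in N2 and at -0.08 ± 0.33, -0.16 ± 0.38, -0.40 ± 0.20 and -0.48 ± 0.26 in met-2 (SD, n = 3). These differences are descriptions, since runs were ranked by them.

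For set-25 against N2, differences were smaller, from -0.64 to 0.48 over the 137 runs, against -0.98 to 1.11 for met-2 against N2. The runs lowest relative to N2 were on I from 14887001 to 14890000, at 0.23 ± 0.04 in N2 (SD, n = 3) and -0.29, -0.70 and -0.25 in set-25 columns a, b and c, and on V from 1202501 to 1204500, at 0.81 ± 0.08 and 0.17 ± 0.19 (SD, n = 3). After the run on III at 2077501, a pair of near neighbours on X followed, from 4045001 to 4048000 and from 4048501 to 4053500. At the first, set-25 columns a, b and c were at 0.55, -0.35 and -0.47, N2 at 0.66, 0.46 and 0.17 and met-2 at -0.21, -0.31 and -0.31, and the second was alike. Column a thus lay within N2, and the other two columns below met-2. Among the runs highest relative to N2 was III from 5507001 to 5509000, with -0.95 ± 0.33 for N2, -0.34 ± 0.02 for met-2 (SD, n = 3), and -0.88, -0.40 and -0.27 in set-25 columns a, b and c.

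Between met-2 and set-25 the runs that differed most downward included IV from 689501 to 691500, at -0.08 ± 0.09 in met-2 and 0.39 ± 0.17 in set-25, and I from 14452501 to 14454500, at 0.43 ± 0.19 and 0.91 ± 0.11 (SD, n = 3). Upward, V from 6171501 to 6183500, 24 windows, was at 0.06, 0.07 and 0.12 in met-2, -0.46, -0.56 and -0.18 in set-25 and -0.61, -0.37 and -0.14 in N2. All met-2 libraries were above input there and all others below. On III from 8343001 to 8345000 met-2 was at -0.23 ± 0.02 (SD, n = 3) and set-25 columns a, b and c at -1.18, -0.59 and -0.38.

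The other long runs lay on both sides of input. On I from 10204001 to 10219500 enrichment was 0.51 ± 0.26 in N2, 0.37 ± 0.22 in met-2 and 0.49 ± 0.21 in set-25 (SD, n = 3), and 28 of its 31 windows were higher in IP in set-25 by limma. On I from 4540001 to 4548500 it was 0.70 ± 0.26, 0.33 ± 0.10 and 0.59 ± 0.15, and on III from 13588501 to 13599000, at 2.88 times the median coverage, 0.82 ± 0.24, 0.48 ± 0.14 and 0.86 ± 0.03 (SD, n = 3). All 21 windows of the latter were higher in IP in N2 and in set-25, and 14 in met-2. For the run on I from 10266001 to 10277000, N2 had 0.02 ± 0.20 and met-2 had -0.14 ± 0.07 (SD, n = 3). Lower values in all strains were found on V from 7917001 to 7925000, at -0.76 ± 0.27, -0.49 ± 0.02 and -0.80 ± 0.29, and on X from 10361001 to 10369500, at -0.44 ± 0.27, -0.41 ± 0.14 and -0.41 ± 0.07 (SD, n = 3).

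The 10 runs of highest coverage were all at 36.2 times the median window or more. Apart from the right end of I, they lay on I from 933001 to 935000, II from 8287501 to 8293000, III from 931001 to 932000, IV from 2828501 to 2831000 and from 13360501 to 13362000, V from 5283001 to 5286000 and from 16707001 to 16709500, and X from 5056001 to 5057500 and from 15807001 to 15811500. In N2 these 9 runs ranged from -0.07 to 0.84 and in met-2 from -0.26 to 0.31. On X from 15807001 to 15811500, at 50.3 times the median coverage, N2 columns a, b and c were at 0.09, 0.37 and 0.58 and met-2 columns at -0.17, -0.19 and -0.40, without overlap. On IV from 2828501 to 2831000 N2 was at 0.53, 0.65 and 0.86, met-2 at 0.07, 0.08 and 0.21 and set-25 at 0.83, 0.26 and 0.39.

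After each input was divided by the median of the 3 inputs of its letter, 23 of 443 runs varied by 1.5 times or more among the 9 inputs, a limit set after the values were seen. Of these, 10 held an end window of a chromosome and 1 had 4 or more windows. That 1 run, on I from 1121001 to 1124500, had 1.98, 3.6 and 4.06 times the median window in N2 inputs a, b and c, 3.61, 3.44 and 3.86 in met-2 and 2.15, 2.43 and 2.65 in set-25. N2 input a was thus with the set-25 inputs and N2 inputs b and c with met-2. The run is also among the largest differences between met-2 and N2 in LEM-2. N2 columns were at 0.35, 0.83 and 1.13, with a mean of 0.77 ± 0.39 (SD, n = 3). Met-2 averaged only 0.01 ± 0.10 (SD, n = 3). What part the unlike input coverage has in that difference was not tested. On V from 18706501 to 18707000, inputs a, b and c had 2.85, 2.12 and 2.11 times the median in N2, 1.80, 1.82 and 1.98 in met-2 and 1.73, 2.55 and 3.15 in set-25. There column a was highest among the N2 inputs and lowest among those labelled set-25.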

How the data were processed

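The deposited table holds log2 values for windows of 500 bp in 18 libraries, and the authors' steps are not described beyond the build ce10 named in the submitters' processing notes. Chromosome ends in the table are not those of that build, so coordinates are given as deposited and no gene or sequence was assigned. The values are log2 of scaled reads plus 2. Every library is scaled to 35.17 M, so all values are relative. Whole reads could be recovered for 100% of values within 0.01, with totals of 8.73 to 64.45 M reads. Whether reads that map to several places were kept is not given in the sources used here, and this bears directly on coverage of repeats. Columns carry letters, not the replicate numbers of the labels, and were used as unnumbered replicates of their group.

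Windows, tests and lists were chosen with earlier results of these data known. N2 inputs b and c chose the windows, so tests that involve N2 used input a alone, assumed to vary like the other groups. IP against input and strain contrasts were fitted with limma 3.58.1 in R 4.3.3 (trend, 6 groups, all windows, Benjamini-Hochberg), and the code was tested on simulated data. Python 3.11.15, numpy 2.4.6, pandas 2.3.3 and matplotlib 3.10.9 did the rest. Named runs were the 10 longest, the 10 of highest coverage and, of runs with 4 or more windows, the 5 highest and 5 lowest in met-2 and the 5 most higher and lower in each strain comparison, 45 in all. Each is given in the report or among the results for a closer look. Alternatives were thresholds, scaling, pseudocount, a minimum of 10 reads, voom, a block on letters and leaving out libraries.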

Additional observations from a re-analysis of the deposited data

Results flagged for a closer look

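Of the 45 named runs, 10 had all 3 libraries of one strain above input and all 3 of another below it. These differences were not tested. With met-2 minus N2, they were -0.62 on I from 10945501 to 10953000, -0.44 on I from 14887001 to 14890000, -0.47 on IV from 689501 to 691500 and -0.60 on IV from 8572501 to 8582000. On V they were -0.53 from 5283001 to 5286000, 0.46 from 6171501 to 6183500 and -0.75 from 17308501 to 17312000. On X they were -0.71 from 4045001 to 4048000, -0.65 from 4048501 to 4053500 and -0.61 from 15807001 to 15811500. Set-25 minus N2 was -0.64 on I from 14887001 to 14890000, and set-25 minus met-2 was 0.47 on IV from 689501 to 691500 and -0.48 on V from 6171501 to 6183500. On median-centred values 10 of these 13 pairs kept opposite signs.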

How the results depend on the processing

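With 1.5 times the median as threshold there were 3127 windows in 1271 runs, and with 3 times 918 in 250. At 1.5 times, mean enrichment was -0.10 in N2, -0.050 in met-2 and -0.083 in set-25, the excess over other windows 0.10, 0.0012 and 0.024, and met-2 minus N2 -0.10. With medians over windows, N2 was at 0.23, its excess 0.47 and met-2 minus N2 -0.40. With runs weighted equally N2 was at 0.12 and its excess 0.32. With N2 input a only, N2 was at 0.26, its excess 0.47 and met-2 minus N2 -0.38. On median-centred values, means were 0.45, 0.088 and 0.21 in N2, met-2 and set-25. The N2 excess was 0.35 with a pseudocount of 20 and 0.35 without N2 column a, and 0.35 to 0.43 when each library was left out. In the same way the met-2 excess was 0.05 to 0.11, that of set-25 0.11 to 0.25, met-2 minus N2 -0.35 to -0.26, set-25 minus N2 -0.28 to -0.14 and met-2 minus set-25 -0.16 to -0.02. Without columns b and c labelled set-25, chosen after the data were seen, column a gave 0.25, an excess of 0.41, 0.024 against N2, and -0.33 for met-2 against it. The cause of these moves was not tested.

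Counts of called windows moved as follows. Over all windows, same-letter inputs deviated together for letters a (r 0.42 to 0.60) and c (0.53 to 0.62) but not b (-0.03 to 0.12). In the high-coverage windows r was higher, at 0.84 to 0.87 for a, 0.87 to 0.90 for c and 0.01 to 0.45 for b. Over all windows, 21 of all 45 same-letter pairs, IP included, had a correlation over 0.1, so the letter was not taken as a pairing of all libraries. With a replicate block on the letter, 361 windows were higher in met-2 IP. Leaving out each library gave 57 to 272 higher and 32 to 171 lower for met-2 IP against input (92 and 69 without met-2 input b, 57 and 32 without IP c, 119 and 40 without input c, and 83 lower without IP b). Without columns b and c labelled set-25 there were 287 higher and 132 lower in set-25 IP, and 221 lower on median-centred values. For N2 IP there were 673 higher and 54 lower on median-centred values, 653 and 333 with all 3 N2 inputs, which chose the windows in part, and 707 and 371 with these and the replicate block. Leaving out each library gave 393 to 486 higher and 128 to 188 lower in N2, and 357 to 530 and 246 to 354 in set-25. For met-2 against N2 there were 1 higher and 126 lower on median-centred values, 7 and 84 by voom, 63 and 121 with all 3 N2 inputs, 111 and 233 with these and the replicate block, and 229 and 331 with IP alone. Leaving out libraries gave 0 to 3 higher and 0 to 36 lower (30 lower without N2 IP a, 36 without set-25 IP a, 34 without met-2 IP c and 7 without N2 IP b). For set-25 against N2 there were 2 lower with all 3 inputs and the replicate block, and 21 higher and 80 lower with IP alone. IP alone gave 18 higher and 9 lower for met-2 against set-25, and without N2 column a 1 window was higher in met-2 input than in set-25 input. Tests with N2 input a had no value when that library was left out. The high-coverage windows had 341 or more reads in the mean input, so the minimum of 10 reads removed none of them.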
